A study of Homo sapiens with 12 samples.

Results

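The genes of MHC class I antigen presentation were taken as 9 named genes: the heavy chain genes HLA-B, HLA-C, HLA-E and HLA-F, the light chain gene B2M, the peptide transporter genes TAP1 and TAP2, the tapasin gene TAPBP and the trimming peptidase gene ERAP1. Every probe of the signal table whose gene symbol in the platform annotation is one of these was taken, which gave 12 probes of 8 of the 9 genes, out of 16922 genes named on the array. No probe carries the symbol HLA-B, and HLA-B is not analysed here. Of the 12 probes, 11 counted as detected (detection p below 0.05 on 4 or more of the 12 arrays), and the probe of HLA-C was not detected on any array.

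RNA was measured on Illumina bead arrays in U937, an established human cell line of monocytic character. Cells were left as controls or given EX527, an inhibitor of the deacetylase SIRT1, or MC2494, named in the series title as a sirtuin inhibitor, for 24 h, with 4 arrays in each of the 3 groups and no other difference between the groups in the labels. The labels used here give no dose and no vehicle and leave it unsaid whether the 4 arrays of a treatment are separate cultures, so p-values reflect array-to-array spread that may be technical. All values come from a single cell line, and the number of arrays limits their precision.

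MHC class I molecules carry peptides from proteins made inside the cell to its surface, where CD8+ T cells read them. The proteasome cuts proteins into peptides, the TAP1-TAP2 heterodimer pumps these into the endoplasmic reticulum, ERAP1 trims them, and tapasin holds an empty heavy chain with beta-2-microglobulin next to the transporter until a peptide fits. Interferon-gamma raises many of these genes together, in part through IRF1, and the coactivator NLRC5 acts on class I promoters with the RFX factors. HLA-E and HLA-F are nonclassical heavy chains, and HLA-E is read by the inhibitory NKG2A receptor of natural killer cells. Fewer transcripts per cell and fewer cells expressing a gene cannot be told apart in such bulk RNA.

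Promoter windows of 4 of the genes are shown as examples, and they carry motifs of the same kind. In MC2494 against control HLA-F and B2M were higher and TAP2 was lower, while TAP1 did not pass the test. Windows of TAPBP and ERAP1 also hold the interferon response core defined below and are not shown. Each window holds 300 bases around the gene start, from RefSeq on GRCh38.p14, and 10 windows were found for 8 of the 9 genes, all except HLA-E. Capitals mark matches to the core of an interferon response element (TTTC and TTTC with any 2 bases between them), to a shorter form (TTTC and TTC with any 2 bases between them), to the CRE-like core TGACG and to the inverted CCAAT box ATTGG, each searched on both strands.
HLA-F promoter, chr6:29723184-29723483, plus strand: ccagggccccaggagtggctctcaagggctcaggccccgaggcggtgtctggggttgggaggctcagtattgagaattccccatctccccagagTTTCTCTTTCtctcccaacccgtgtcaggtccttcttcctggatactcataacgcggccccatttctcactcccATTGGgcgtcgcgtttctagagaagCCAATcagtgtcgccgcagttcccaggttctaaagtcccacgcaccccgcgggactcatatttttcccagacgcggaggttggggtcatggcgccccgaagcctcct
B2M promoter, chr15:44711267-44711566, plus strand: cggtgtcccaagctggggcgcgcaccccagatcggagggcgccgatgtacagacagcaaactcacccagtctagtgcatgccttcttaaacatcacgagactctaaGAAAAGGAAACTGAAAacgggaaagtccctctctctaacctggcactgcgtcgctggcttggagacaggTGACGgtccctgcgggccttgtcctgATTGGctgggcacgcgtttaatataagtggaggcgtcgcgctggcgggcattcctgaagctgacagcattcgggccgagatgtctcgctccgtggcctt
TAP1 promoter, chr6:32853655-32853954, minus strand: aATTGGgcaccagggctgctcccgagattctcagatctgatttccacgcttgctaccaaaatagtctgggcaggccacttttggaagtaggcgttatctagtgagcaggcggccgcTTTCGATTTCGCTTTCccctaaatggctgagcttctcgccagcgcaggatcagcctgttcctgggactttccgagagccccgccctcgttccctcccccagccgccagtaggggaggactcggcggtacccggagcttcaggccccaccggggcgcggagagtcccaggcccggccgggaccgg
TAP2 promoter, chr6:32838690-32838989, minus strand: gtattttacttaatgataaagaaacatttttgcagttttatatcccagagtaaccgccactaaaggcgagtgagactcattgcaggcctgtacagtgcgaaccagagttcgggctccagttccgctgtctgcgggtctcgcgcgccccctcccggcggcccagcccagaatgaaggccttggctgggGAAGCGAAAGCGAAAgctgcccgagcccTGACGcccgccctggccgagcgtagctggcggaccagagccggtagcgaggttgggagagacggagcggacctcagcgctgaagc
The longer interferon response core was found in 6 of the 10 windows, against 3.57% of 35116 promoter windows. The shorter form, which can overlap the longer one as in TAP2, was in 4 of 10 windows against 7.66%, TGACG was in 4 of 10 against 24.6%, and ATTGG was in 6 of 10 against 34.6%. The windows shown for HLA-F, B2M, TAP1 and TAP2 each hold at least 1 longer core. A further TAP1 window, chr6:32852712-32853011, holds no match to these motifs and is not shown. TAP1 lies back to back with PSMB9, an immunoproteasome subunit gene, on opposite strands. For the TAP1 window shown, 488 bases lie between the starts of these neighbours, and their windows share 13 bases. A match is a run of letters and does not show that a factor binds there.

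The mean raw intensity of an array averaged 779.3 ± 14.5 in control cells, 736.2 ± 32.3 with EX527 and 662.8 ± 31.0 with MC2494 (SD over 4 arrays each), and 12231 to 13030 of 24526 probes were detected per array. Quantile normalization gives all arrays the same distribution, so every log2 value below is relative to the other probes of its array. Of 13 myelomonocytic markers 11 were detected. Raw intensities of the 12 with a probe summed to 30352 to 31783 in control, 27166 to 30524 in EX527 and 25990 to 28690 in MC2494. The sums below also take every marker with a probe. On the normalized scale 6 of the 11 were higher and 3 lower in MC2494 than in control (limma adjusted p under 0.05). The median log2 differences were 0.17 in MC2494 and -0.28 in EX527, where 2 were higher and 7 lower. Of all genes 37.3% were higher and 34.8% lower in MC2494, and 25.6% and 30.4% in EX527. Of the other lists, 5 of 15 for lymphocytes were detected, 4 of 15 for erythroid cells and megakaryocytes, and 3 of 14 for epithelium and fibroblasts. The summed intensity of the lymphocyte markers was 10311 to 10941 in control, 9542 to 10750 in EX527 and 7524 to 8528 in MC2494. The other lists summed to 919 to 1126 and to 945 to 1088 over all arrays, and the part of any of these markers in the results was not tested.

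The first comparison set MC2494 against control cells. HLA-F, B2M, HLA-E and ERAP1 were higher and TAP2 was lower, while TAP1 and TAPBP did not pass the test. Of the 11 detected probes 5 were higher and 2 lower at a limma adjusted p under 0.05, where 35.4% of all 13174 probes tested were higher and 35.3% lower, so this count lies near the background. Under median scaling the split was 3 higher and 3 lower, and without scaling 3 and 2. The higher probes include 1 ERAP1 probe that was detected on 1 control array only. The median log2 difference of the 11 probes was 0.12, against -0.01 over all probes. With EX527, 4 of the 11 were higher and 2 lower, against 24.3% and 30% of all probes, with medians of 0.06 and -0.04. These higher probes include the same ERAP1 probe, which the detection filter kept through the treated arrays. Between the compounds, 5 probes were higher in MC2494 than in EX527 and 2 lower, against 31.4% and 29% of all probes, with medians of 0.13 and 0.01, and 3 were higher and 2 lower without scaling. Both comparisons with control use the same 4 control arrays, so the direct comparison of MC2494 with EX527 is the test of a difference between the compounds.

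**Figure D1:**
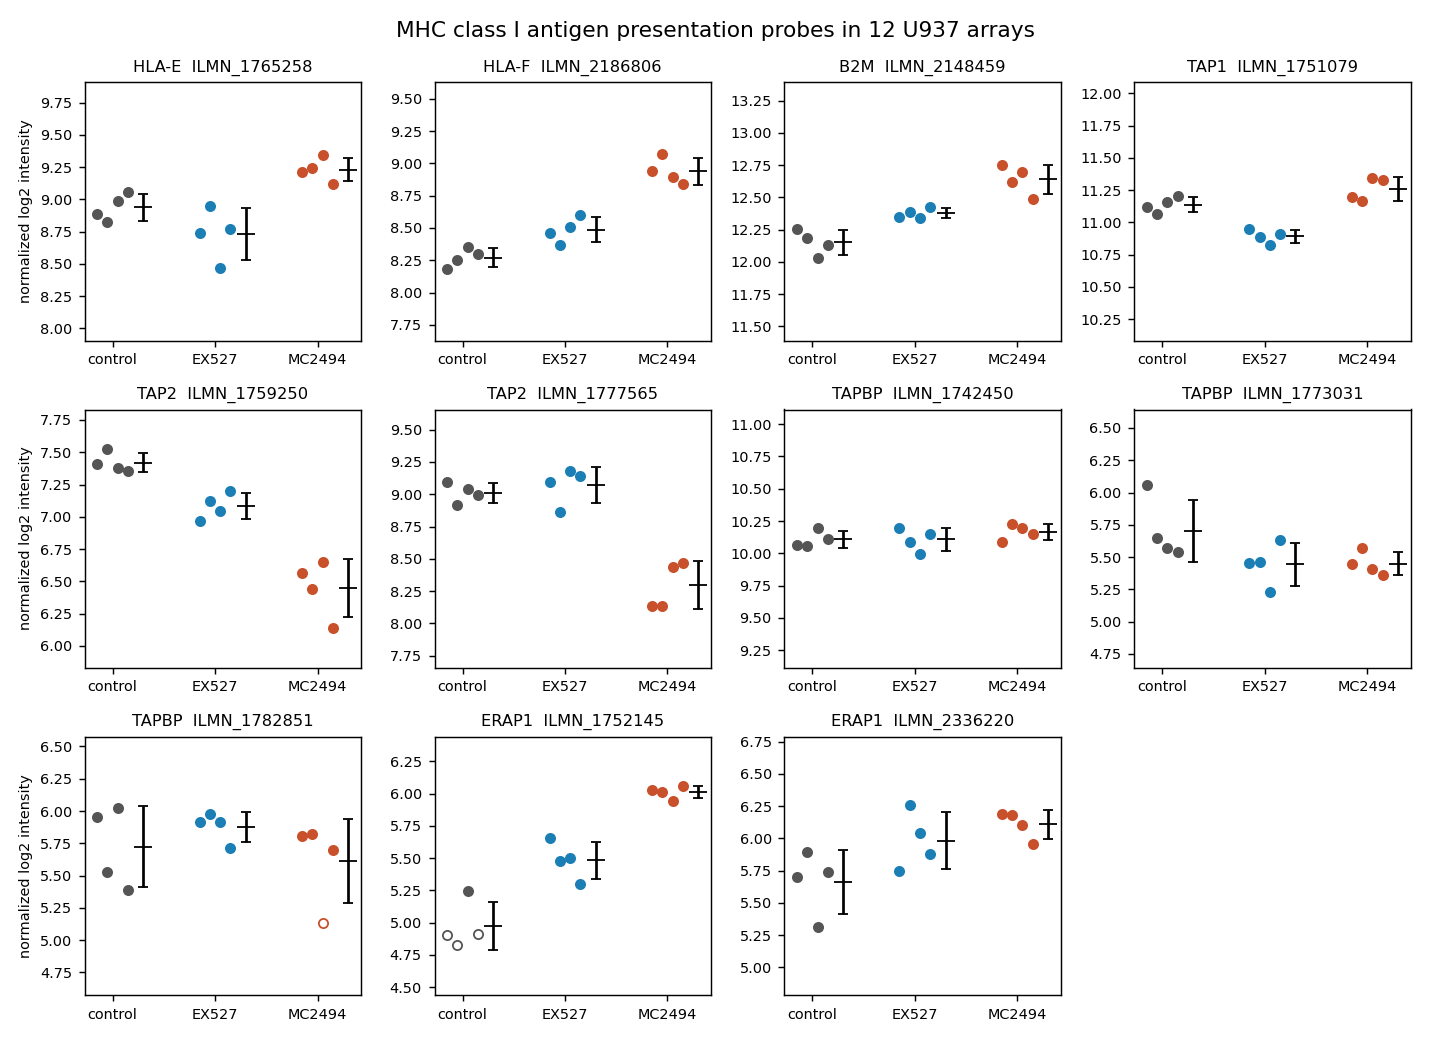
Normalized log2 intensity of each of the 11 detected probes (y axis, 2 log2 units high in every panel) on each array of the 3 groups (x axis); filled points are detected at p under 0.05, open points are not, and the bar shows mean and SD (n = 4). HLA-F and B2M step up from control to EX527 to MC2494 without overlap, and both TAP2 probes sit lowest in MC2494.

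HLA-F, a nonclassical heavy chain that can reach the cell surface without peptide, was higher with each compound. Its normalized log2 intensity was 8.18, 8.25, 8.35 and 8.30 on control arrays 1 to 4, 8.46, 8.37, 8.51 and 8.60 on the EX527 arrays and 8.94, 9.08, 8.89 and 8.84 on the MC2494 arrays. The 3 groups did not overlap, with control lowest and MC2494 highest. HLA-F was 1.59-fold higher in MC2494 than in control (0.67 ± 0.07 on the log2 scale, where ± gives the standard error here and below and each group has 4 arrays; limma adjusted p = 6.2e-07) and 1.37-fold higher in MC2494 than in EX527 (0.45 ± 0.07, limma adjusted p = 4.8e-05). The rise with EX527 was smaller, at 0.22 ± 0.07 (limma adjusted p = 0.015), and without EX527 array 4 it was 0.18 and missed the threshold (limma adjusted p = 0.051).

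HLA-E, the heavy chain read by NKG2A, had log2 intensities of 8.89, 8.83, 8.99 and 9.06 in control, 8.74, 8.95, 8.47 and 8.77 in EX527 and 9.21, 9.25, 9.34 and 9.12 in MC2494. All MC2494 arrays lay above all others, and EX527 overlapped control. The difference from control was 0.29 ± 0.09 in MC2494 (limma adjusted p = 0.010) and -0.21 ± 0.09 in EX527, which did not pass the test (limma adjusted p = 0.070). MC2494 was 1.41-fold above EX527 (0.50 ± 0.09, limma adjusted p = 2.9e-04). The EX527 difference lay close to the threshold and moved with the arrays and the processing. It passed without EX527 array 2, at -0.28 (limma adjusted p = 0.017), and with replicates 3 and 4 only, at -0.40 (limma adjusted p = 0.039), but was -0.12 without EX527 array 3 and -0.01 with replicates 1 and 2 only. With an offset of 50, without background correction, with a trended robust variance and on the authors' deposited log2 values it was -0.19, -0.18, -0.21 and -0.18 and passed (limma adjusted p from 0.031 to 0.044).

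HLA-C, a classical heavy chain, is represented by a single probe with detection p between 0.83 and 1.00 and raw intensities of 47.5 to 61.2 on the 12 arrays, and no fold is given. Heavy chain genes share long near-identical stretches, and whether these probes bind only their own transcript was not tested.

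B2M encodes beta-2-microglobulin, the light chain of MHC class I molecules. Its log2 intensity was 12.26, 12.19, 12.03 and 12.13 in control, 12.35, 12.39, 12.34 and 12.43 in EX527 and 12.75, 12.62, 12.70 and 12.49 in MC2494. The order of the groups was that of HLA-F, again without overlap. B2M was 1.40-fold higher in MC2494 than in control (0.49 ± 0.07, limma adjusted p = 1.4e-05), 1.17-fold higher in EX527 than in control (0.23 ± 0.07, limma adjusted p = 0.011) and 1.20-fold higher in MC2494 than in EX527 (0.26 ± 0.07, limma adjusted p = 0.0037).

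The B2M differences depended on the scaling between arrays. Before normalization the raw intensities were 5580, 5305, 4559 and 4940 in control, 5146, 5423, 5722 and 5614 in EX527 and 5723, 5744, 6175 and 5017 in MC2494, and these groups overlapped. When arrays were scaled to a common median instead of quantile normalized, the log2 differences were 0.16 in MC2494, 0.07 in EX527 and 0.09 between the compounds, and with no scaling they were 0.16, 0.11 and 0.05. None of these 6 values passed the test (limma adjusted p from 0.058 to 0.66), while the direction stayed the same. HLA-E in MC2494 against control was 0.19 with median scaling and 0.18 with none, and also missed the threshold (limma adjusted p = 0.065 and 0.086). HLA-F kept its calls under both scalings in all 3 comparisons.

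TAP1 forms one side of the peptide transporter. Its log2 intensity was 11.12, 11.07, 11.16 and 11.21 in control, 10.95, 10.89, 10.82 and 10.91 in EX527 and 11.20, 11.17, 11.35 and 11.32 in MC2494. The EX527 arrays lay below all others, and MC2494 overlapped control. TAP1 was 1.19-fold lower in EX527 than in control (-0.25 ± 0.06, limma adjusted p = 0.0025) and 1.29-fold higher in MC2494 than in EX527 (0.37 ± 0.06, limma adjusted p = 8.0e-05).

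The TAP1 difference of MC2494 from control was 0.12 ± 0.06 and did not pass the test (limma adjusted p = 0.076), and it changed sign with the scaling. It was -0.16 with median scaling, at limma adjusted p = 0.0495, and -0.16 with none, at limma adjusted p = 0.072. Raw intensities were 2428 to 2544 in control, 1975 to 2056 in EX527 and 1981 to 2496 in MC2494, so the EX527 arrays were lower than the controls on the raw scale too. Without MC2494 array 2 the difference was 0.15 and passed (limma adjusted p = 0.035). The value between the compounds was 0.19 with median scaling and 0.15 with none, where it missed the threshold (limma adjusted p = 0.11).

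TAP2, the partner of TAP1 in the transporter, is read by 2 probes that the annotation assigns to different TAP2 transcripts. On probe ILMN_1777565 the log2 intensities were 9.09, 8.91, 9.04 and 8.99 in control, 9.10, 8.86, 9.18 and 9.14 in EX527 and 8.13, 8.14, 8.44 and 8.47 in MC2494. All MC2494 arrays lay below all others, on this scale and on the raw scale (297 to 397 against 529 to 694), and EX527 overlapped control. On this probe TAP2 was 1.64-fold lower in MC2494 than in control (-0.72 ± 0.09, limma adjusted p = 7.4e-06) and 1.71-fold lower in MC2494 than in EX527 (-0.78 ± 0.09, limma adjusted p = 5.3e-06). The EX527 difference was 0.06 ± 0.09, with a 95% interval of -0.14 to 0.26.

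On the other TAP2 probe, ILMN_1759250, the values were 7.41, 7.52, 7.38 and 7.36 in control, 6.97, 7.12, 7.05 and 7.20 in EX527 and 6.57, 6.44, 6.65 and 6.14 in MC2494. The 3 groups did not overlap, with MC2494 lowest. This probe was 1.96-fold lower in MC2494 than in control (-0.97 ± 0.10, limma adjusted p = 4.6e-07), 1.55-fold lower in MC2494 than in EX527 (-0.64 ± 0.10, limma adjusted p = 5.0e-05) and 1.26-fold lower in EX527 than in control (-0.33 ± 0.10, limma adjusted p = 0.0090). The EX527 call was lost without scaling between arrays, at -0.24 (limma adjusted p = 0.071). The falls of both TAP2 probes in MC2494 kept their calls under both scalings.

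**Figure D2:**
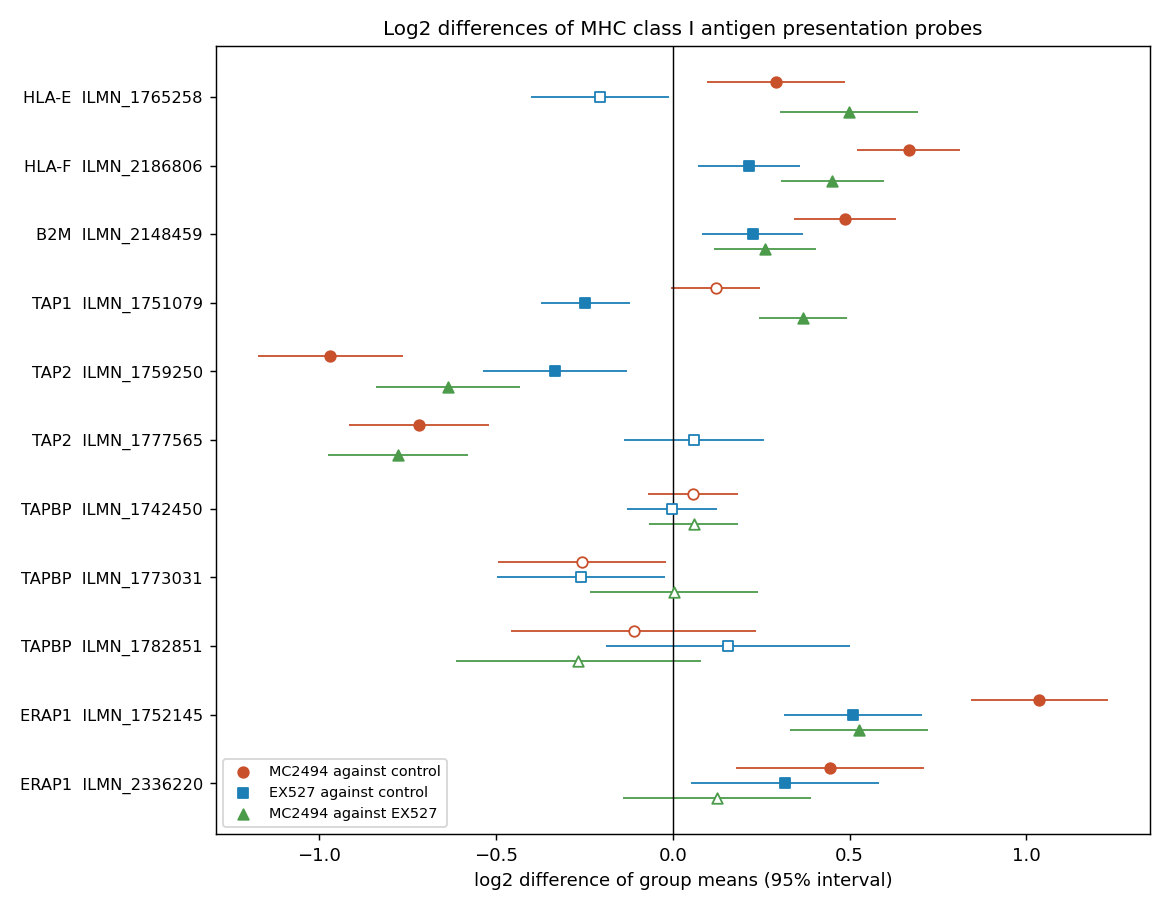
Log2 difference of group means (x axis, with 95% interval from limma, n = 4 arrays per group) for each of the 11 detected probes (y axis) in the 3 comparisons; filled symbols passed an adjusted p under 0.05 over 13174 probes. TAP2 lies on the negative side in MC2494 on both probes, at -0.97 and -0.72 against control, while HLA-F and ERAP1 lie on the positive side.

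The partners of the transporter were set against each other, a contrast chosen after its values were seen. The log2 difference of MC2494 from control was 1.09 larger for TAP1 than for TAP2 on ILMN_1759250 and 0.84 larger than on ILMN_1777565. Against EX527 these gaps were 1.00 and 1.14. Each of the 4 gaps gave the smallest p that 4 arrays against 4 allow (2-sided exact permutation test, p = 0.0286). After Benjamini-Hochberg adjustment over the 21 probe pairs and comparisons computed this is 0.10, and none of the 4 passed. With that floor a gap could pass only if most of the 21 reached it, so the adjusted test cannot decide on these gaps. The TAP2 probes differed from each other by 0.39 in their EX527 difference (exact permutation p = 0.0286, adjusted 0.10).

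Tapasin, encoded by TAPBP, was read by 3 probes, and none of them passed the test in any of the 3 comparisons. On ILMN_1742450, the TAPBP probe detected on all arrays with the least spread, log2 intensities ran from 10.05 to 10.20 in control, 10.00 to 10.19 in EX527 and 10.09 to 10.23 in MC2494. The 95% intervals of its differences were -0.07 to 0.18 for MC2494 and -0.13 to 0.13 for EX527. ILMN_1773031 gave -0.26 ± 0.11 with each compound (limma adjusted p = 0.052 in MC2494 and 0.061 in EX527), with control array 1 highest at 6.06. Without control array 1 the MC2494 and EX527 values shrank to -0.14 and -0.14 (limma adjusted p = 0.18 and 0.19). Without control array 3 the MC2494 and EX527 values were -0.30 and -0.30 and both passed (limma adjusted p = 0.038 and 0.048). Without control array 4 both were -0.31 and passed (limma adjusted p = 0.030 and 0.039). The MC2494 value passed without MC2494 array 2, at -0.30 (limma adjusted p = 0.042), and the EX527 value without EX527 array 4, at -0.32 (limma adjusted p = 0.031). ILMN_1782851, detected on 3 of the 4 MC2494 arrays, gave -0.11 ± 0.16 in MC2494 and 0.16 ± 0.16 in EX527.

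ERAP1, the peptidase that trims peptides in the endoplasmic reticulum, was measured by 2 probes, both higher with each compound. ILMN_1752145 had log2 intensities of 4.91, 4.82, 5.24 and 4.92 in control, of which only array 3 was detected, 5.65, 5.48, 5.50 and 5.30 in EX527 and 6.03, 6.01, 5.94 and 6.06 in MC2494. The groups did not overlap. The probe was kept by the detection filter through the treated arrays, and most control values are not above background, so its difference from control is given with signals that were not detected raised to the lowest detected signal of their array, an alternative chosen after seeing the data. On that scale it was 0.81 in MC2494 (1.75-fold) and 0.28 in EX527 (1.22-fold), and the fit without this step gave 1.04 and 0.51. Between the compounds, where all 8 arrays were detected, MC2494 was 1.44-fold above EX527 (0.53 ± 0.09, limma adjusted p = 1.7e-04).

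ILMN_2336220, the ERAP1 probe detected on all arrays, had values of 5.70, 5.90, 5.32 and 5.74 in control, 5.75, 6.26, 6.04 and 5.88 in EX527 and 6.19, 6.18, 6.10 and 5.95 in MC2494. MC2494 lay above control on every array, while EX527 overlapped both. The rise was 0.44 ± 0.12 in MC2494 (limma adjusted p = 0.0052) and 0.32 ± 0.12 in EX527 (limma adjusted p = 0.042), with 0.13 ± 0.12 between the compounds (95% interval -0.14 to 0.39). The EX527 call was lost without any one of control arrays 1, 3 and 4 and EX527 arrays 2 and 3, at 0.33, 0.20, 0.34, 0.23 and 0.30 (limma adjusted p from 0.051 to 0.14).

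**Figure D3:**
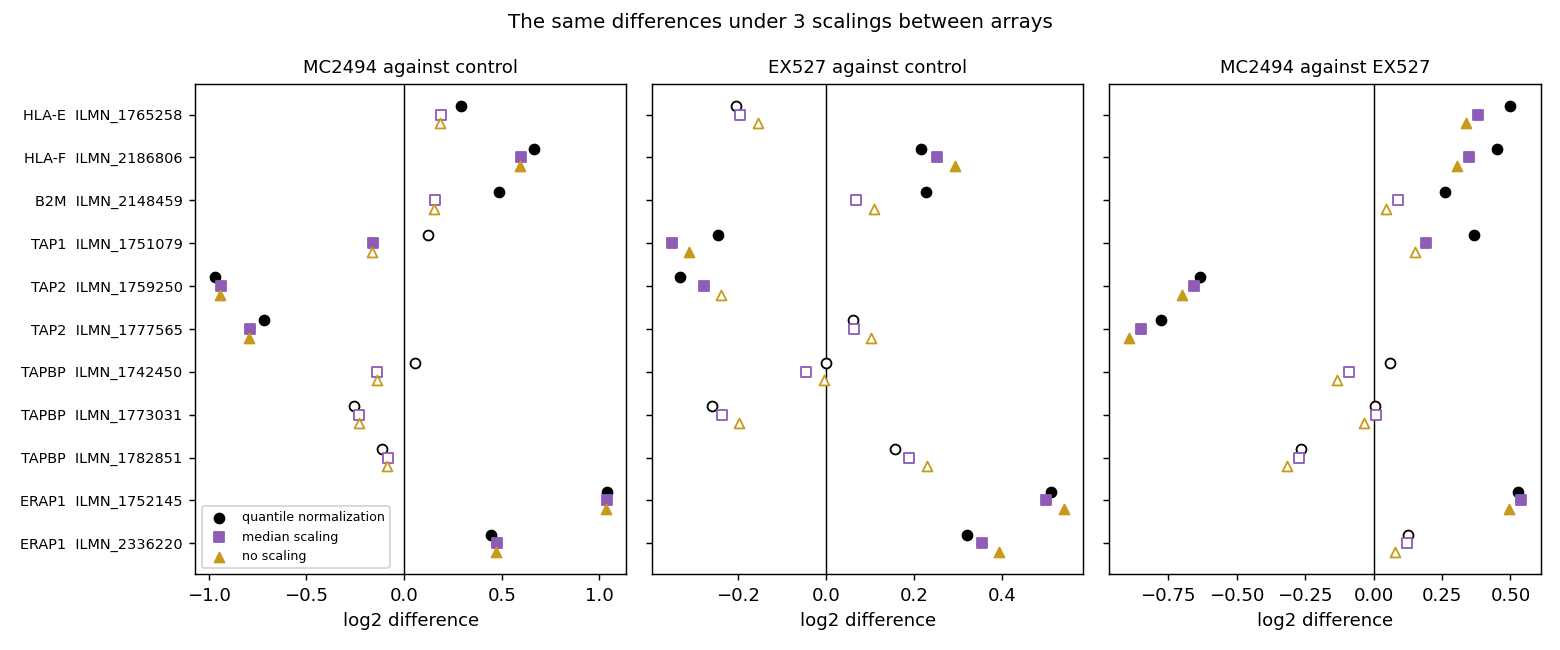
Log2 differences (x axis) of the 11 detected probes (y axis) under quantile normalization, median scaling and no scaling between arrays, 1 panel per comparison; filled symbols passed an adjusted p under 0.05. B2M moves toward 0 in all 3 panels and TAP1 in MC2494 against control crosses 0, from 0.12 to -0.16, whereas HLA-F, both TAP2 probes in MC2494 and ERAP1 stay on their side.

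Genes whose pattern was most like that of a member were sought over the 9956 genes, by the distance between the pairs of log2 differences from control. Nearest to B2M were COL9A2, CBFA2T2 and DDX52, at distances of 0.0041, 0.0049 and 0.0092, and 186 genes lay within 0.1. Nearest to TAP1 were PGP, FCGR2B and BAG1, at 0.0028, 0.0074 and 0.0077, and 168 genes lay within 0.1. The distances rest on 3 group means that share the control arrays.

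The rest of the pathway was described from gene lists, with the brightest detected probe for each gene. In that count 37.3% of 9956 genes were higher and 34.8% lower in MC2494 than in control, 25.6% and 30.4% in EX527, and 32.8% and 28.7% in MC2494 against EX527. Of 12 measured genes of peptide loading and other class I genes, 6 were higher and 3 lower in MC2494, 4 and 2 in EX527, and 4 and 4 between the compounds. The median log2 differences were 0.15, 0.05 and 0.02, against 0.01, -0.04 and 0.02 over all genes. The 2 lower calls in EX527 became 1 without control array 2 or 3 or EX527 array 3 or 4. In MC2494 the split was 4 higher and 5 lower under median scaling and without scaling.

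TAPBPL, the tapasin-related peptide editor, had log2 intensities of 6.36, 6.37, 6.34 and 6.60 in control, 6.61, 6.63, 6.52 and 6.56 in EX527 and 7.82, 7.76, 7.69 and 7.70 in MC2494. MC2494 stood clear of the others, at 1.33 ± 0.06 above control (2.51-fold, limma adjusted p = 2.9e-10) and 1.16 ± 0.06 above EX527 (limma adjusted p = 2.1e-09). The EX527 rise of 0.16 passed narrowly (limma adjusted p = 0.044) and was lost without any one of control arrays 1, 2 and 3 and EX527 arrays 1, 2 and 4, at 0.14 to 0.17. THOP1, a cytosolic peptidase that destroys class I peptides, was 2.63-fold lower in MC2494 (-1.40 ± 0.05, limma adjusted p = 2.0e-11) and 1.30-fold lower in EX527 (-0.38 ± 0.05, limma adjusted p = 3.4e-05). HLA-H, a class I pseudogene, differed by 0.97 in MC2494 and 0.36 in EX527, values that are uncertain because of its near-identical relatives.

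ERAP2, the second trimming peptidase, was 0.41 ± 0.09 higher in MC2494 than in control (limma adjusted p = 9.5e-04) and 0.02 in EX527. The chaperone gene CALR was 0.32 ± 0.07 lower in MC2494 (log2 difference -0.32, limma adjusted p = 0.0012) and CANX, the membrane chaperone of new heavy chains, was 0.37 ± 0.06 higher (limma adjusted p = 1.2e-04). The MC2494 calls of ERAP2 and CANX were lost under median scaling, at 0.08 and 0.11, and without scaling, at 0.08 and 0.10. PDIA3 was not detected.

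The immunoproteasome replaces the active subunits of the proteasome and changes which peptides are cut. Of 6 measured genes of the immunoproteasome and the PA28 proteins, 4 were higher and 2 lower in MC2494, 0 higher and 3 lower in EX527, and 3 higher and 1 lower between the compounds, with medians of 0.19, -0.19 and 0.09. The lower calls include PSME3, which encodes PA28 gamma, in each of the 3 comparisons. PSMB9, the neighbour of TAP1, had log2 intensities of 8.54, 8.72, 8.74 and 8.61 in control, 8.20, 8.23, 8.22 and 8.26 in EX527 and 9.16, 9.22, 8.96 and 8.99 in MC2494. EX527 lay below and MC2494 above every control array. The difference was 0.43 ± 0.07 in MC2494 (limma adjusted p = 5.3e-05), -0.43 ± 0.07 in EX527 (limma adjusted p = 1.2e-04) and 0.86 ± 0.07 between the compounds (limma adjusted p = 8.7e-08), and all 3 kept their calls under both scalings.

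PSMB10 had values of 11.91, 11.97, 11.96 and 12.11 in control, 12.01, 12.07, 11.84 and 12.06 in EX527 and 12.67, 12.64, 12.69 and 12.62 in MC2494. MC2494 lay above all others, at 0.67 ± 0.06 against control (limma adjusted p = 3.1e-07) and 0.66 ± 0.06 against EX527 (limma adjusted p = 6.3e-07), and EX527 overlapped control. The third inducible subunit gene, PSMB8, was lower with each compound, at -0.39 ± 0.05 in MC2494 (limma adjusted p = 5.8e-06) and -0.39 ± 0.05 in EX527 (limma adjusted p = 1.4e-05). PSME3, the PA28 gamma gene, was also lower with each, at -0.73 and -0.50. The rises of PSME1 and PSME2, at 0.23 and 0.15 in MC2494, turned to -0.10 and -0.12 under median scaling, so the list then held 2 higher and 2 lower genes. The PSME2 call was lost also without any one of control arrays 1 and 4 and MC2494 arrays 1, 3 and 4, at 0.11 to 0.14.

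Of 18 measured regulators of class I genes, 7 were higher and 6 lower in MC2494, 4 and 7 in EX527, and 8 and 5 between the compounds, with medians of 0.02, -0.05 and 0.16. IRF1, an interferon-induced activator of class I and TAP1 promoters, had log2 intensities of 8.72, 8.85, 8.68 and 8.53 in control, 8.57, 8.45, 8.49 and 8.44 in EX527 and 9.32, 9.48, 9.29 and 9.18 in MC2494. MC2494 lay above all others, at 0.62 ± 0.08 against control (limma adjusted p = 4.5e-06) and 0.83 ± 0.08 against EX527 (limma adjusted p = 4.1e-07). The EX527 difference of -0.21 (limma adjusted p = 0.034) overlapped control and was lost under median scaling at -0.19 and without scaling at -0.15. It was lost also without any one of control arrays 1, 2 and 3 and EX527 arrays 2, 3 and 4, at -0.21 to -0.16. The 7 lower calls in EX527 became 4 without control array 2, EX527 array 2 or EX527 array 3, and the 8 higher calls between the compounds became 3 without scaling.

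NLRC5, detected on 1 control, 2 EX527 and 4 MC2494 arrays, did not pass in any comparison, at 0.30 ± 0.13 in MC2494 (limma adjusted p = 0.057). Without control array 2, MC2494 array 1 or MC2494 array 3 its difference was 0.42, 0.35 and 0.35 and passed (limma adjusted p from 0.0060 to 0.048). Against EX527 it was 0.26, and passed without EX527 array 2, at 0.35 (limma adjusted p = 0.038). RFX5, a factor that binds class I and class II promoters, gave -0.05 in MC2494, and -0.32 under median scaling, where it passed (limma adjusted p = 0.0024). EZH2, the methyltransferase that silences class I genes in several tumours, was 3.52-fold lower in MC2494 (-1.82 ± 0.06, limma adjusted p = 9.6e-12) and 0.09 in EX527. JAK2, a kinase of the interferon-gamma receptor, was higher with each compound, at 1.30 and 0.79, and SUZ12, a partner of EZH2, at 0.78 and 1.03.

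**Figure D4:**
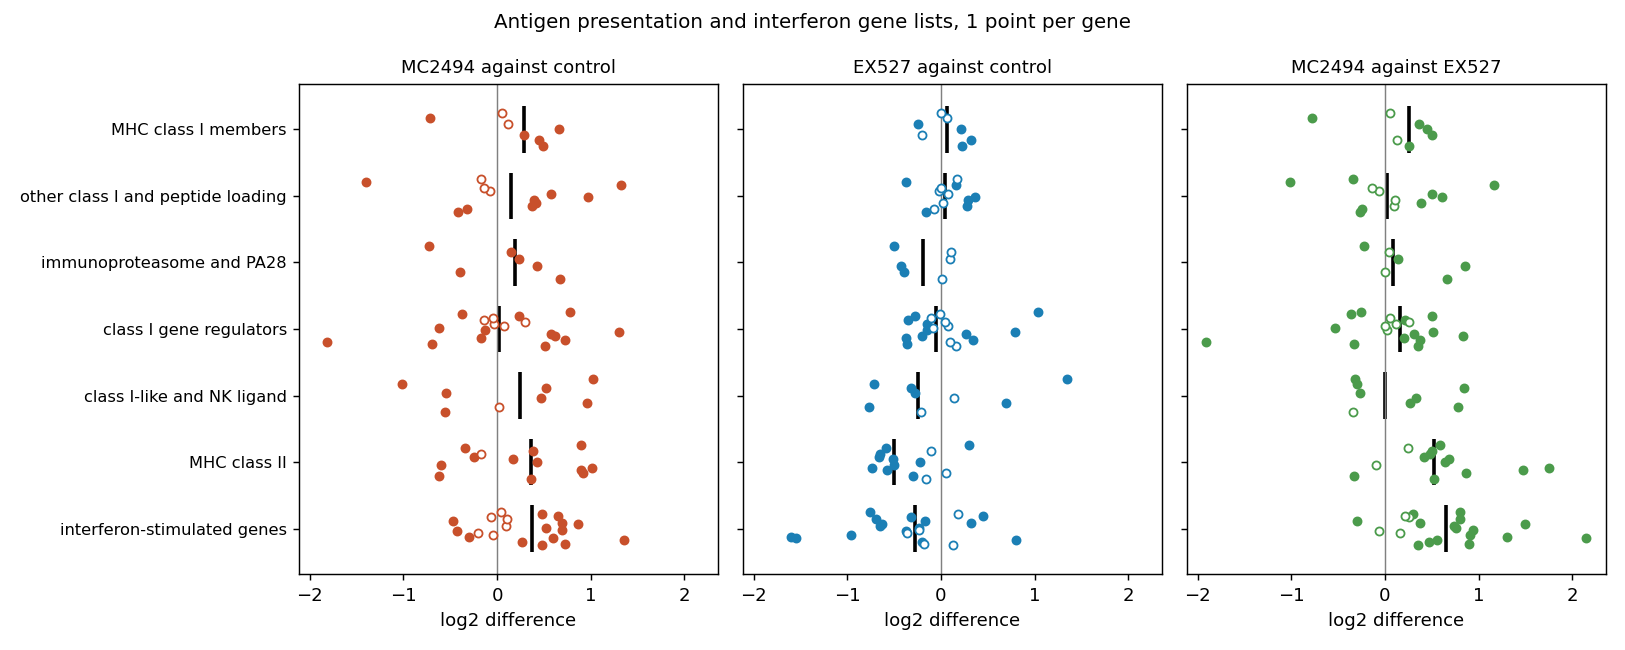
Log2 difference (x axis) of each measured gene of the class I members and 6 further lists (y axis, 1 point per gene by its brightest detected probe, black bar at the list median) in the 3 comparisons; filled points passed an adjusted p under 0.05. The class II and interferon-stimulated lists sit left of 0 in EX527, with medians of -0.50 and -0.28, and right of 0 in MC2494 against EX527, at 0.52 and 0.65.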

How the data were processed

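RNA of U937 cells (3000 ng per sample) was converted to labelled cRNA and hybridised to Illumina BeadChips, according to the labels. The authors' deposited signal table holds probe intensity on a linear scale, which its values show to be unnormalized, and next to each intensity a p-value of detection, named as such in the header. The deposited series table holds log2 values from the authors, with a median of 6.4368 in every column. The submitters' processing notes name limma, and the background correction behind the log2 values is not given in the sources used here.

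Background was inferred from detection p with neqc (limma 3.58.1, R 4.3.3; offset 16, quantile normalization, log2). Of 24526 probes, 21834 had 1 gene symbol in the platform annotation, 0 several and 2692 none, and 21 symbols had no entry in the RefSeq table used for names. Probes with detection p below 0.05 on 4 or more of 12 arrays were kept (13174). All 12 arrays were fitted with lmFit and eBayes, 1 mean per group, with Benjamini-Hochberg adjustment over all kept probes and a threshold of 0.05. SE and 95% intervals come from that fit, and the median SD within groups was 0.109. Gene lists used the brightest kept probe of each of 9956 genes. Differences between 2 probes were tested by exact permutation, 2-sided. The procedure was tested on simulated data.

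The members, lists and comparisons were chosen with earlier results of these data known. The genes named are all probes of the members, the 3 most changed called genes of each list in each comparison, all genes of lists with up to 8 genes, fixed regulators and chaperones, and the 3 genes most like B2M and TAP1, of which the text gives part. CIITA, CD1C, GBP2, the values of a named gene in a further comparison and the contrast of TAP1 with TAP2 were chosen after values were seen. Alternatives changed background, scaling, filter, probe choice, variance model, weights, threshold, arrays and values.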

Additional observations from a re-analysis of the deposited data

How the results depend on the processing

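Over the alternatives tried, 700 of 771 recomputed member differences kept direction and side of the threshold, 33 lost their call, 18 gained one and 20 changed sign. The EX527 count of 6 called member probes fell to 2 with replicates 1 and 2 only and to 3 at adjusted p under 0.01. The first setting has fewer arrays and the second a stricter threshold. With replicates 1 and 2 only some differences were also smaller, such as B2M at 0.15 against 0.23. What lowered that count was not tested. Leaving out 1 array gave 7 to 9 called member probes in MC2494 against control, 5 to 6 in EX527 against control and 7 to 7 between the compounds. Deviations of same-numbered arrays were weakly correlated at most (from -0.04 to 0.18), which does not settle whether replicate numbers pair the arrays. A replicate block gave 8, 6 and 7 called member probes. Without scaling the median of all probes between the compounds was -0.10, against 0.01, and 35.2% of called probes were higher (41.2% under median scaling, 52.0% after quantile normalization).

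Signs turned, with the cause not tested, for values that had not passed and for 3 that had: PSME1 and PSME2 in MC2494 against control and PSME1 between the compounds (limma adjusted p = 0.0015, 0.039 and 0.036), which lost their calls. TAP1 under median scaling passed in the turned direction (limma adjusted p = 0.0495). In MC2494 against control, under median scaling and without scaling, TAP1 was -0.158 and -0.162, TAPBP on ILMN_1742450 -0.136 and -0.140, PSME1 -0.0972 and -0.101 and PSME2 -0.121 and -0.125. In EX527 against control they gave ERAP2 -0.133 and -0.0932, PSMB10 -0.146 and -0.106 and PSME1 -0.0575 and -0.0177. Between the compounds they gave TAPBP on ILMN_1742450 -0.0910 and -0.135, CANX -0.0601 and -0.104, PSMB8 -0.152 and -0.196 (limma adjusted p = 0.028 without scaling), PSME1 -0.0397 and -0.0833, PSME2 -0.140 and -0.184 and RFX5 -0.115 and -0.158; TAPBP on ILMN_1773031 was -0.0338 without scaling. Array weights gave TAPBP on ILMN_1742450 0.00844 in EX527 and on ILMN_1773031 -0.0208 between the compounds.

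With replicates 1 and 2 only, TAPBP on ILMN_1782851 was 0.0722 in MC2494, and in EX527 TAP2 on ILMN_1777565 was -0.0242, TAPBP on ILMN_1742450 0.0786, ERAP2 -0.0435 and NLRC5 -0.0759; PSME2 between the compounds was -0.0323. With replicates 3 and 4 only, RFX5 was 0.00683 in MC2494, PSMB10 -0.0857 in EX527, and TAPBP on ILMN_1773031 and PSMB8 were -0.0428 and -0.0401 between the compounds. With undetected signals at the lowest detected signal NLRC5 was -0.00501 in EX527. Leaving out 1 array, ranges that crossed 0 were -0.221 to 0.0510 for TAPBP on ILMN_1782851 in MC2494, and in EX527 -0.0304 to 0.0352 for TAPBP on ILMN_1742450, -0.0617 to 0.0830 for ERAP2, -0.0171 to 0.0622 for PSMB10 and -0.0487 to 0.166 for NLRC5. Between the compounds they were -0.0684 to 0.0673 for TAPBP on ILMN_1773031 and -0.0175 to 0.0194 for PSMB8. Signal near background limits HLA-C, NLRC5 and the dimmer ERAP1 and TAPBP probes.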

Other observations

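Other gene families that meet T or natural killer cells were counted as the class I pathway lists were, beside the same shares of all genes (37.3% higher and 34.8% lower in MC2494, 25.6% and 30.4% in EX527, 32.8% and 28.7% between the compounds). Of 8 measured class I-like molecules and natural killer ligands, 4 were higher and 3 lower in MC2494, 2 and 4 in EX527, and 4 and 3 between the compounds. ULBP1, an NKG2D ligand detected on 3 of the 4 control arrays, was higher with each compound, at 1.02 in MC2494 and 1.35 in EX527, and FCGRT, the neonatal Fc receptor heavy chain that pairs with B2M, at 0.96 and 0.69. PROCR, the endothelial protein C receptor, was lower with each, at -1.01 and -0.72. The lower genes in MC2494 also include CD1C, at -0.55 with overlapping groups, detected on 3 control arrays and no MC2494 array. CD1D, which presents lipids and also pairs with B2M, was -0.76 in EX527 and 0.02 in MC2494.

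Of 13 measured genes of the MHC class II list, 8 were higher and 4 lower in MC2494, 1 higher and 9 lower in EX527, and 10 higher and 1 lower between the compounds, with medians of 0.36, -0.50 and 0.52. In MC2494 against control the split was 6 higher and 5 lower under median scaling, and 6 and 4 without scaling. In EX527 it was 1 and 10, and 1 and 8. Between the compounds it stayed at 10 and 1. The list also holds CD74, CTSS, IFI30 and CIITA, which are not class II chain genes. The first 3 were among the higher genes in MC2494, and IFI30 was the higher gene in EX527. The lower genes in MC2494 include HLA-DOB, HLA-DRB1 and HLA-DRB6, at -0.60, -0.24 and -0.35. HLA-DMB, a subunit of the class II peptide editor, ran from 6.65 to 6.80 in control, 5.92 to 6.05 in EX527 and 7.63 to 7.80 in MC2494. Its groups did not overlap, at 1.01 in MC2494, -0.74 in EX527 and 1.75 between the compounds (± 0.06 each, limma adjusted p = 1.3e-09, 1.7e-07 and 1.4e-11). HLA-DMA, the other subunit, was 0.90, -0.58 and 1.48. CIITA, the master regulator of class II genes, was detected on 3 control arrays, 1 EX527 array and no MC2494 array. Its measured differences were -0.62, -0.29 and -0.33. CIITA is counted among the lower genes in each comparison, and between the compounds it is the lower gene. These calls rest in part on signals that were not detected.

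Of 20 measured interferon-stimulated genes, 11 were higher and 3 lower in MC2494, 3 higher and 12 lower in EX527, and 15 higher and 1 lower between the compounds, with medians of 0.37, -0.28 and 0.65. IFIT1, which binds foreign RNA, was 0.60 in MC2494, -1.55 in EX527 and 2.15 between the compounds, with 2 of the 4 EX527 arrays detected. IFIT2 was lower with each compound, at -0.30 in MC2494 and -1.60 in EX527, where 1 array was detected. ISG20, an exonuclease, was 0.87 in MC2494 and -0.63 in EX527, and IFIH1, an RNA sensor, was higher with each, at 1.35 and 0.80. GBP2, counted among the higher genes in MC2494 at 0.48, was detected on all 4 MC2494 arrays and no control array.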
